A study of Mus musculus with 10 samples.

Results

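Microglia are the resident macrophages of the brain, and in the undisturbed brain they carry a set of transcripts that sets them apart from most other macrophages. The 8 genes described here belong to that set. They were taken by gene symbol, and all 8 were found among the 37447 genes of the deposited expression table. Tmem119, Siglech and Selplg encode cell surface proteins, Slc2a5 a membrane transporter, Ltc4s a membrane enzyme, Golm1 a Golgi membrane protein, and Olfml3 and Sparc secreted glycoproteins. Tmem119, whose role in microglia is poorly known, is widely used to tell microglia from macrophages that enter from the blood. Siglech is a lectin-like receptor of the sialic acid-binding Siglec family that signals through the adaptor DAP12. Surface and secreted markers of this kind are used to label microglia, and their transcripts are known to be low in many activated or cultured microglia.

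The mice were 6 weeks old and the tissue was brainstem. LCM_GFP is 4 libraries (3 labelled female, 1 male) of GFP expressing microglia cut by laser from sections of briefly fixed, snap-frozen tissue, with RNA released by proteinase K and acid phenol. FACS_GFP is 3 libraries (2 female, 1 male) of GFP expressing microglia sorted from dissociated tissue after a Percoll gradient, with RNA taken up in TRIzol. FACS_WT is 3 libraries (all male) of wild-type microglia, labelled C57BL/6, sorted in the same way. The labels give neither the locus or promoter of the GFP reporter nor the strain of the GFP mice. They call each library a biological replicate and do not say how many animals went into one, so the tests measure the spread between these libraries. RNA of every library went through Ovation amplification before sequencing. Capture by laser, fixation, dissociation with the Percoll gradient and RNA extraction cannot be told apart as sources of a difference between LCM_GFP and either sorted group. Strain and reporter cannot be told apart between FACS_GFP and FACS_WT, where labelled sex is also uneven. Between LCM_GFP and FACS_WT the reporter, labelled sex and possibly strain differ as well as the method, and these cannot be told apart either.

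Values are FPKM, fragment counts that the authors corrected for transcript length and library size. Levels of different genes are compared on that scale only, as gene-specific effects of amplification, fixation or extraction were not measured. The FPKM of a library summed to 393949 to 632854, and 11075 to 12500 genes reached 1 FPKM. Within LCM_GFP, libraries 1 and 3 stood apart: 8 erythroid marker genes summed to 1716 and 1128 FPKM there, to 27.6 and 0.223 FPKM in libraries 2 and 4, and to at most 3.50 FPKM in any sorted library. The 10 most abundant genes took 34.4% of the FPKM of LCM_GFP library 1. That library is labelled female and held the Y chromosome gene Uty at 15.6 FPKM beside 14.0 FPKM of Xist, which coats the inactive X. Its other Y chromosome genes were lower, with Kdm5d at 3.26, Eif2s3y at 2.25 and Ddx3y at 0.198 FPKM. In LCM_GFP library 2, labelled male, these stood at 36.5, 47.9 and 4.41 FPKM and Uty at 15.0 FPKM. LCM_GFP library 3, labelled female, held Kdm5d at 5.96 FPKM. FACS_GFP library 2, labelled male, held Xist at 3.91 FPKM. The 5 defining microglial markers Cx3cr1, Csf1r, Aif1, Itgam and P2ry12 were above 0 in every library. Their geometric mean was 56.6, 156, 144 and 115 FPKM in LCM_GFP libraries 1 to 4, against 288, 251 and 304 FPKM in FACS_GFP and 321, 305 and 384 FPKM in FACS_WT.

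In laser-captured microglia the 8 marker genes were present but lower than in sorted microglia. Averaged over libraries, LCM_GFP held between 17.7% (Slc2a5) and 62.8% (Sparc) of the FACS_GFP level, and between 17.3% (Olfml3) and 58.2% (Sparc) of the FACS_WT level. Every LCM_GFP library lay below every sorted library for all 8 genes, as it did for 31.2% of the 13403 genes tested against FACS_GFP and for 29.6% of the 13415 tested against FACS_WT. In limma's moderated test across all genes, 5 of the 8 passed an adjusted p of 0.05 as lower than in FACS_GFP (Tmem119, Siglech, Olfml3, Slc2a5 and Golm1), where 19.6% of all genes tested were called lower, 12.5% higher and 32.1% in either direction. Against FACS_WT, 6 of the 8 passed, Selplg being the sixth, where 19.1% of all genes were called lower, 12.3% higher and 31.4% in either direction. None of the 8 was called higher in either comparison. These comparisons share the LCM_GFP libraries. The median log2 change of the 8 genes was −2.0 against FACS_GFP and −2.31 against FACS_WT, where that of all genes tested was −0.60 and −0.59. Log2 changes here are differences of log2(FPKM + 1), a scale on which a low gene's change is understated. In RNA pooled from many cells, fewer microglia and less RNA per microglial cell cannot be told apart.

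Other microglial genes were lower beside them. Of 39 further microglial genes, 26 were called lower than in FACS_GFP and none higher, with a median log2 change of −1.59, and 31 were called lower than in FACS_WT, with a median of −1.70, against the 19.6% and 19.1% of all genes given above. Under median ratio scaling 7 and 9 of the 39 were called lower, with medians of −1.04 and −1.16. The most abundant of these was Laptm5, a lysosomal membrane protein of blood-derived cells, at 780 ± 425 FPKM in LCM_GFP (n = 4) against 2308 ± 192 FPKM in FACS_GFP (n = 3; SD in both). Markers of other brain cells are given as sums over 10 genes each, because most were near 0 in sorted cells and could enter the test through LCM_GFP alone. Oligodendrocyte markers summed to 2924 to 7888 FPKM in LCM_GFP against 21.6 to 26.6 FPKM in FACS_GFP. Neuron markers summed to 943 to 2133 FPKM in LCM_GFP against 3.24 to 11.8 FPKM in FACS_GFP. Astrocyte markers summed to 495 to 900 FPKM in LCM_GFP against 29.3 to 33.0 FPKM in FACS_GFP, and endothelium markers to 92.0 to 283 FPKM in LCM_GFP against 19.2 to 25.3 FPKM in FACS_GFP. Most of these FACS_GFP sums was 1 gene each, neither of them called. Slc1a3 of the astrocyte list averaged 26.6 FPKM in LCM_GFP against 28.1 FPKM in FACS_GFP. Pecam1 of the endothelium list went the other way, averaging 8.83 FPKM in LCM_GFP against 20.0 FPKM in FACS_GFP. Of the immediate early genes, transcripts of a rapid cell response such as Jun, 13 of 16 were called lower than in FACS_GFP, against 19.6% of all genes. Egr2, Fosb and Atf3 were under 1 FPKM in every LCM_GFP library and entered the test through FACS_GFP alone. The calls of these genes were bound to that direction. Summed, the 16 genes stood at 86.1 to 144 FPKM in LCM_GFP against 1743 to 2468 FPKM in FACS_GFP. Pericyte and fibroblast markers summed to between 30 and 98.4 FPKM in LCM_GFP against 0.287 to 0.838 FPKM in FACS_GFP. Markers of perivascular macrophages, the nearest relatives of microglia in the brain, summed to 51.1 to 356 FPKM in LCM_GFP against 313 to 365 FPKM in FACS_GFP. Most of that sum was Stab1, a scavenger receptor, at 180 ± 138 FPKM in LCM_GFP (n = 4) against 294 ± 16.1 FPKM in FACS_GFP (n = 3; SD in both). Of the others, Pf4 averaged 0.973 FPKM in LCM_GFP against 17.7 FPKM in FACS_GFP and Mrc1 1.73 FPKM in LCM_GFP against 11.1 FPKM in FACS_GFP. Those of monocytes, neutrophils and lymphocytes summed to 0.101 to 31.4 FPKM in LCM_GFP against 36.7 to 51.9 FPKM in FACS_GFP, and 1 of 2 tested, Cd79b, was called lower. Dividing cell markers summed to 798, 31.3, 211 and 25.8 FPKM in LCM_GFP against 14.0 to 23.1 FPKM in FACS_GFP, with none of 9 called, and none of 3 tested erythroid markers was called. The part of these cell types in the level of the 8 markers was not tested.

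**Figure D1:**
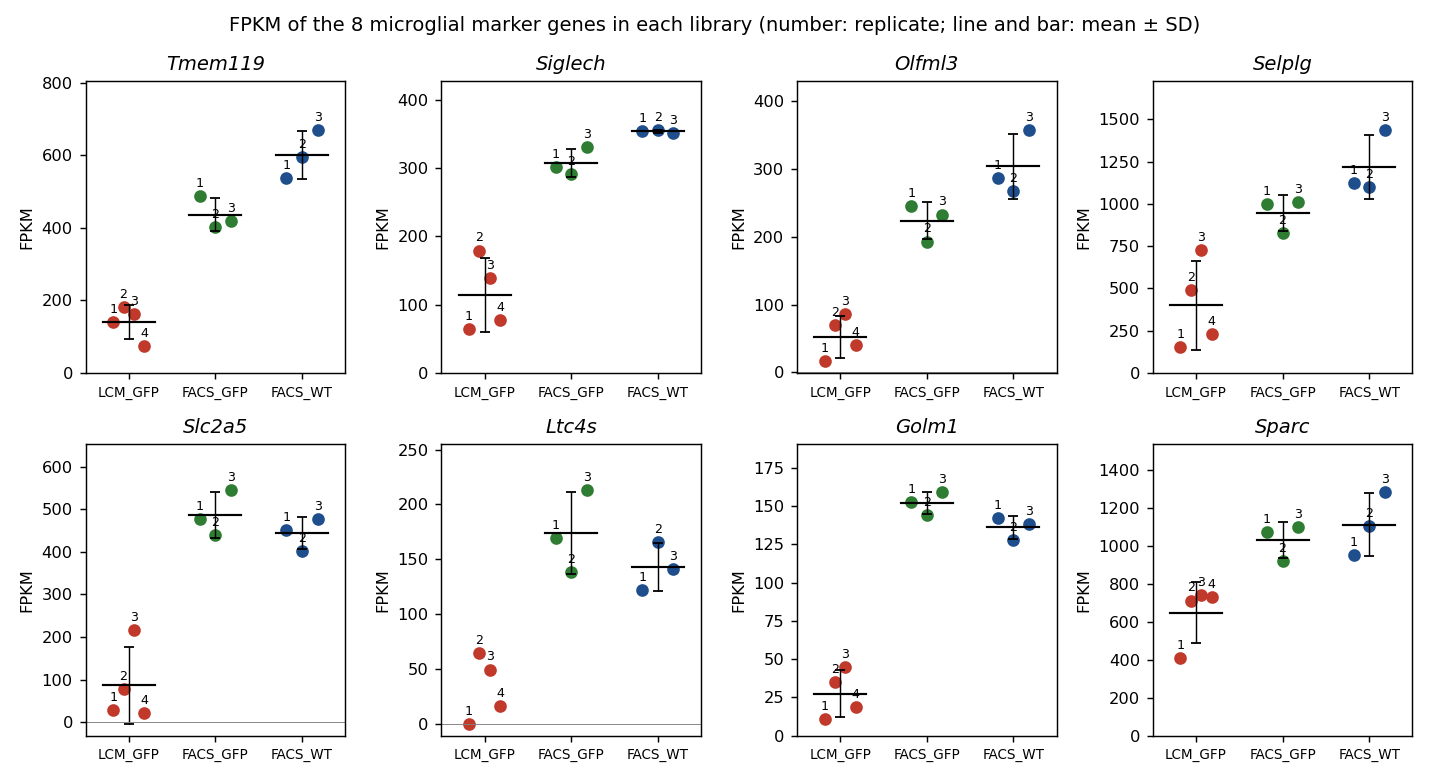
FPKM (linear axes, one per gene) of each of the 8 marker genes in every library; points are libraries with their replicate number, lines are group means and bars are SD (n = 4, 3 and 3), not drawn for Ltc4s in LCM_GFP, where a library is listed at 0. In each panel the 4 LCM_GFP points lie below all FACS_GFP and FACS_WT points, closest in proportion for Selplg (729 FPKM in the highest LCM_GFP library against 825 FPKM in the lowest FACS_GFP library).

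The promoters of 3 genes are printed because they bracket the changes: Slc2a5 and Golm1 had the largest called falls against FACS_GFP, and Sparc had the smallest difference. Each is the 250 bases before the annotated start of the gene in RefSeq (build GRCm38.p6), written 5′ to 3′ on the strand of the gene. Of the 8 genes, 6 matched this promoter table. Capitals mark GGAA, the core bound by ETS factors such as PU.1, the factor that specifies macrophages and microglia, or its reverse complement TTCC.
Slc2a5 (chr4:150119094-150119343, plus strand): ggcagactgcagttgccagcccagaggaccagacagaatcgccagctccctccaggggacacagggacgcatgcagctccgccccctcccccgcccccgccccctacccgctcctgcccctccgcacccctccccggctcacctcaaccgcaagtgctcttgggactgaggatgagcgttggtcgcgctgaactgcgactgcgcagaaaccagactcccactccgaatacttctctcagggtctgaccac
Golm1 (chr13:59675785-59676034, minus strand): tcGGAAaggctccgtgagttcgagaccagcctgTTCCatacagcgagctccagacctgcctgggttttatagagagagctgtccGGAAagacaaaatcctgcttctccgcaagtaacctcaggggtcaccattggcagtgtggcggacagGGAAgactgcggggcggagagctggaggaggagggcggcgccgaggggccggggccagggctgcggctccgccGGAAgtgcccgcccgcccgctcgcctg
Sparc (chr11:55420081-55420330, minus strand): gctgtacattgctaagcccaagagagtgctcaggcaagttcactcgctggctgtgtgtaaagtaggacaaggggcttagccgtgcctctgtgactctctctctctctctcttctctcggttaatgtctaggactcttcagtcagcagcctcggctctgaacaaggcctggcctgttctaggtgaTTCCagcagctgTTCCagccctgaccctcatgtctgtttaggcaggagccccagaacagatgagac
GGAA on either strand was found in 93.4% of the 32851 promoter windows of the table. The Slc2a5 window was among the 6.55% with none, while the Golm1 window held 5 and the Sparc window 2. The longer forms GAGGAA (23.3% of all windows, either strand) and GAGGAAGT (2.44%), each of which contains GGAA, were in none of the 6 windows. The Slc2a5 and Golm1 windows were rich in G and C, at 66.4% and 65.6%, with 15 and 20 CG dinucleotides, while the Sparc window had 54.0% and 4. The median over all windows was 52.4% and 6.00 CG dinucleotides. The windows of Siglech, Olfml3 and Ltc4s held 4, 5 and 7 copies of GGAA, with a GC content of 50.8%, 57.6% and 57.6%. These are descriptions of letters and say nothing of binding.

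Among the surface proteins, Tmem119 (ENSMUSG00000054675, mm9 chromosome 5, 114243737 to 114250525) stood at 140, 182, 162 and 75.2 FPKM in LCM_GFP libraries 1 to 4, against 489, 403 and 418 FPKM in FACS_GFP and 539, 596 and 671 FPKM in FACS_WT. Both sorted groups were well above the laser-captured one, and FACS_GFP lay below FACS_WT without overlap. Its log2 change was −1.70 (SE 0.35, limma adjusted p = 0.00901) from LCM_GFP minus FACS_GFP and −2.16 (SE 0.36, limma adjusted p = 0.00309) from LCM_GFP minus FACS_WT. Library 4 was the lowest of the LCM_GFP group for Tmem119 and Slc2a5, whereas library 1 was the lowest for the other 6 genes. The call against FACS_GFP ended under median ratio scaling (limma adjusted p = 0.0520).

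Siglech (ENSMUSG00000051504, mm9 chromosome 7, 63023547 to 63034295) stood at 63.6, 179, 139 and 76.9 FPKM in LCM_GFP, against 301, 291 and 330 FPKM in FACS_GFP and 354, 356 and 351 FPKM in FACS_WT. Its FACS_WT libraries were the most even of any of the 8 genes, with a coefficient of variation of 0.717%. Its log2 change was −1.54 against FACS_GFP (SE 0.40, limma adjusted p = 0.0231) and −1.74 against FACS_WT (SE 0.41, limma adjusted p = 0.0143). Both calls ended under median ratio scaling, at limma adjusted p = 0.101 and 0.0592. The 10 related genes were Siglec family receptors and the adaptors they use, some of them also among the 39 microglial genes. Of these 10, 5 were called lower in LCM_GFP than in FACS_GFP and 1 higher, against 19.6% and 12.5% of all genes. Tyrobp, which encodes DAP12, the adaptor of Siglec-H, fell to 369 ± 202 FPKM in LCM_GFP (n = 4), against 985 ± 202 FPKM in FACS_GFP (n = 3; SD in both, log2 change −1.59, limma adjusted p = 0.0398). Fcer1g, a sister adaptor, fell to 220 ± 82.7 FPKM in LCM_GFP (n = 4), against 462 ± 53.4 FPKM in FACS_GFP (n = 3; SD in both, limma adjusted p = 0.0457). Siglece, an inhibitory receptor, fell by 2.41 on the log2 scale (limma adjusted p = 0.0335), while Cd33, another inhibitory member, had a log2 change of −1.05 and did not pass (limma adjusted p = 0.103). The gene called higher was Mag, also an oligodendrocyte marker above, the Siglec of oligodendrocytes and myelin, at 82.6 ± 44.9 FPKM in LCM_GFP (n = 4) against 6.52 ± 0.729 FPKM in FACS_GFP (n = 3; SD in both, log2 change 3.30, limma adjusted p = 0.00266). Under median ratio scaling 1 of the 10 was called lower, Siglecg, and under both scalings to other microglial genes none was, while Mag was called higher under every scaling tried.

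Selplg (ENSMUSG00000048163, mm9 chromosome 5, 114267806 to 114280510) encodes PSGL-1, the ligand by which leukocytes bind selectins. It lies 17281 bases from Tmem119 with no other gene of the table between them. It stood at 151, 492, 729 and 232 FPKM in LCM_GFP, against 1001, 825 and 1012 FPKM in FACS_GFP and 1120, 1098 and 1438 FPKM in FACS_WT. Libraries 1 and 4 were far below libraries 2 and 3, and the log2 change against FACS_GFP, −1.49 (SE 0.52), did not pass (limma adjusted p = 0.0602). Against FACS_WT it passed at −1.85 (SE 0.52, limma adjusted p = 0.0302), but not under median ratio scaling (limma adjusted p = 0.0979) or quantile normalization (limma adjusted p = 0.0578). The neighbours did not move in step between LCM_GFP libraries: the ratio of Selplg to Tmem119 was 1.07, 2.70, 4.51 and 3.08 in LCM_GFP, against 2.05, 2.05 and 2.42 in FACS_GFP and 2.08, 1.84 and 2.14 in FACS_WT. It was below all sorted libraries in LCM_GFP library 1 and above all of them in the other 3 libraries. The selectins that PSGL-1 binds are made by other cells: Selp was listed at 0 in every library, and Sele stayed under 0.1 FPKM in each. Of all genes tested against FACS_GFP, 19.6% were called lower in LCM_GFP and 12.5% higher. Of 9 tested partners and enzymes that decorate PSGL-1, 5 were called lower in LCM_GFP than in FACS_GFP and none higher. They were 4632428N05Rik (the gene of VISTA, a checkpoint protein that binds PSGL-1 in human cells) at −1.73, Tpst2 (tyrosine sulfation) at −2.25, Msn (moesin, which links PSGL-1 to actin) at −1.30, C1galt1c1 (a chaperone of O-glycan synthesis) at −1.64 and Gcnt1 (O-glycan branching) at −3.44 (limma adjusted p = 0.0120, 0.00691, 0.0176, 0.0486 and 0.00939). Under median ratio scaling 2 of the 5 calls held, those of Tpst2 and Gcnt1, and under both scalings to other microglial genes none of the 9 was called lower.

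The fructose transporter GLUT5 is the product of Slc2a5 (ENSMUSG00000028976, mm9 chromosome 4, 149493391 to 149518278), a gene that in brain is largely microglial. It stood at 27.9, 78.0, 217 and 22.1 FPKM in LCM_GFP, against 478, 439 and 545 FPKM in FACS_GFP and 452, 403 and 477 FPKM in FACS_WT. It spread more over the LCM_GFP libraries than any other gene of the 8 with values above 0 in all of them: library 3 was 9.80 times library 4. In the sorted groups the highest library was 1.24 times the lowest in FACS_GFP and 1.19 times in FACS_WT. The log2 change was −3.06 against FACS_GFP (SE 0.74, limma adjusted p = 0.0165) and −2.93 against FACS_WT (SE 0.73, limma adjusted p = 0.0186), the largest of any of the 8 that passed. Khk, the ketohexokinase that phosphorylates fructose after uptake, fell further, to 2.31 ± 2.02 FPKM in LCM_GFP (n = 4), against 50.8 ± 8.68 FPKM in FACS_GFP (n = 3; SD in both, log2 change −4.22, limma adjusted p = 0.00217). Its call held under every scaling tried, including scaling to the other microglial genes (log2 change −3.03). Of the 7 tested genes listed with Slc2a5, Slc2a9, a urate transporter, was the other one to fall (log2 change −2.62, limma adjusted p = 0.0172). Slc2a13, a myo-inositol transporter, averaged 1.99 FPKM in LCM_GFP against 0.00106 FPKM in FACS_GFP and entered the test through its LCM_GFP values alone. Slc2a1, the glucose transporter of brain endothelium and most cells, stood at 132 ± 77.9 FPKM in LCM_GFP (n = 4) against 46.9 ± 2.41 FPKM in FACS_GFP (n = 3; SD in both) and did not pass (limma adjusted p = 0.123). Slc2a8, an intracellular member, had a log2 change of −1.44 and did not pass (limma adjusted p = 0.101).

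Ltc4s (ENSMUSG00000020377, mm9 chromosome 11, 50049970 to 50052118) encodes leukotriene C4 synthase, which joins leukotriene A4 to glutathione. It was listed at 0 in LCM_GFP library 1 and stood at 64.9, 49.6 and 15.9 FPKM in libraries 2 to 4, against 170, 139 and 213 FPKM in FACS_GFP and 122, 165 and 141 FPKM in FACS_WT. A 0 in such a table can be a failed estimate. The log2 change, −3.48 against FACS_GFP (SE 1.33) and −3.21 against FACS_WT (SE 1.31), was the most negative of the 8 in both comparisons, and neither passed (limma adjusted p = 0.0773 and 0.0948). Without LCM_GFP library 1 both passed, at −2.17 and −1.89 (limma adjusted p = 0.0186 and 0.0277). Its locus overlaps that of Gm16641, which had 0 to 1.18 FPKM, and use of strand in counting is not given in the sources used here. Of 8 tested pathway genes, 4 were called lower in LCM_GFP than in FACS_GFP and none higher, against 19.6% and 12.5% of all genes. Alox5ap, which presents arachidonic acid to 5-lipoxygenase, fell to 83.6 ± 63.5 FPKM in LCM_GFP (n = 4), against 422 ± 50.2 FPKM in FACS_GFP (n = 3; SD in both, log2 change −2.70, limma adjusted p = 0.0154). Cysltr1, a receptor for cysteinyl leukotrienes, fell to 9.21 ± 7.84 FPKM in LCM_GFP (n = 4), against 108 ± 6.97 FPKM in FACS_GFP (n = 3; SD in both, log2 change −4.03, limma adjusted p = 0.0140). Pla2g4a, the phospholipase that frees arachidonic acid, fell by 2.25 on the log2 scale (limma adjusted p = 0.0184) and Abcc1, an exporter of leukotriene C4, by 1.82 (limma adjusted p = 0.0225). Alox5, the 5-lipoxygenase itself, had −2.13 and did not pass (limma adjusted p = 0.0516). Under median ratio scaling 2 of the 4 calls held, those of Alox5ap and Cysltr1, and under scaling to the other microglial genes none did.

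Golm1 (ENSMUSG00000021556, mm9 chromosome 13, 59736356 to 59777145) encodes GP73, a membrane protein of the Golgi. It stood at 11.2, 35.0, 45.2 and 18.5 FPKM in LCM_GFP, against 152, 144 and 159 FPKM in FACS_GFP and 142, 128 and 138 FPKM in FACS_WT. The sorted libraries were tight, with coefficients of variation of 4.80% in FACS_GFP and 5.64% in FACS_WT, and the LCM_GFP libraries lay far below them. Its log2 change was −2.61 against FACS_GFP (SE 0.49, limma adjusted p = 0.00622) and −2.45 against FACS_WT (SE 0.50, limma adjusted p = 0.00815). It was the gene whose call against FACS_GFP held under most settings, 17 of the 19 alternatives, failing under both scalings to other microglial genes. Of 10 other Golgi genes tested, 2 were called lower (Man1a, a mannosidase that trims N-glycans, at −2.22, and B4galt1, a galactosyltransferase, at −2.45) and 1 higher (limma adjusted p = 0.00276, 0.0111 and 0.00987), near the 19.6% and 12.5% of all genes. Under both scalings to other microglial genes none was called lower. The gene called higher was Casc4, the paralog of Golm1, at 128 ± 59.4 FPKM in LCM_GFP (n = 4) against 28.2 ± 4.77 FPKM in FACS_GFP (n = 3; SD in both, log2 change 2.04). The log2 changes of the tethering proteins Golgb1 and Golga2 were 0.14 and −1.12, and neither passed (limma adjusted p = 0.870 and 0.188).

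Of the secreted proteins, Olfml3 (ENSMUSG00000027848, mm9 chromosome 3, 103537622 to 103541924) encodes an olfactomedin-domain glycoprotein. It stood at 16.1, 69.4, 85.7 and 39.6 FPKM in LCM_GFP, against 246, 193 and 233 FPKM in FACS_GFP and 287, 268 and 358 FPKM in FACS_WT. The groups were ordered without overlap. The log2 change was −2.30 against FACS_GFP (SE 0.56, limma adjusted p = 0.0170) and −2.74 against FACS_WT (SE 0.56, limma adjusted p = 0.00809). Its locus overlaps Gm16520, which was at or near 0 in all libraries. The rest of the olfactomedin family split: of 6 tested relatives, 4 were called higher in LCM_GFP than in FACS_GFP and 2 lower. Higher were Olfm1, a neuronal glycoprotein, at 50.9 ± 32.8 FPKM in LCM_GFP (n = 4) against 0.0580 ± 0.0242 FPKM in FACS_GFP (n = 3; SD in both), and Olfm2, Olfml1 and Myoc. Lower were Olfml2b, at 1.54 ± 2.28 FPKM in LCM_GFP (n = 4) against 16.6 ± 2.38 FPKM in FACS_GFP (n = 3; SD in both, log2 change −3.12, limma adjusted p = 0.00784), and Olfm4 (log2 change −1.57, limma adjusted p = 0.00101). The 4 higher relatives entered the test through LCM_GFP alone and Olfm4 through FACS_GFP alone, the groups where they are high, so these calls were bound to that direction.

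Sparc (ENSMUSG00000018593, mm9 chromosome 11, 55208001 to 55233582) encodes osteonectin, a matricellular protein that binds collagen. It was the most abundant of the 8 genes in LCM_GFP and the one with the smallest difference from sorted microglia. It stood at 408, 712, 742 and 729 FPKM in LCM_GFP, against 1075, 923 and 1099 FPKM in FACS_GFP and 954, 1103 and 1282 FPKM in FACS_WT. LCM_GFP library 1 was low and the other 3 lay close together. The log2 change was −0.71 against FACS_GFP (SE 0.28, limma adjusted p = 0.0842) and −0.81 against FACS_WT (SE 0.29, limma adjusted p = 0.0653). Neither passed, and without LCM_GFP library 1 both did, at −0.50 and −0.60 (limma adjusted p = 0.0374 and 0.0356). With each library scaled to other microglial genes the sign turned, to 0.99 and 1.02. Of all genes tested against FACS_GFP, 46.9% had a more negative change than Sparc. Of its relatives in the SPARC family and other matricellular genes, 7 of 8 tested were called higher in LCM_GFP than in FACS_GFP and none lower. All of the 7 but Spp1 were under 1 FPKM in every FACS_GFP library and entered the test through LCM_GFP alone, so the count cannot be read as a result about the family. Sparcl1 (hevin, made by astrocytes) stood at 255 ± 62.3 FPKM in LCM_GFP (n = 4) against 0.198 ± 0.250 FPKM in FACS_GFP (n = 3; SD in both, log2 change 7.73, limma adjusted p = 3.15e-05). The proteoglycans Spock2 and Spock1 changed by 5.88 and 5.16 on the log2 scale and Fstl1, a secreted follistatin-like protein, by 4.22 (limma adjusted p = 0.000458, 0.000458 and 0.00421). Sparc is also a known transcript of brain endothelium, whose marker sums in LCM_GFP and FACS_GFP are given above. Slco1a4, a transporter of those cells, stood at 75.2 ± 52.3 FPKM in LCM_GFP (n = 4) against 0.150 ± 0.261 FPKM in FACS_GFP (n = 3; SD in both). Pecam1 of the same list had a lower mean in LCM_GFP than in FACS_GFP, as given above. The part of endothelial RNA in the Sparc level was not tested.

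**Figure D2:**
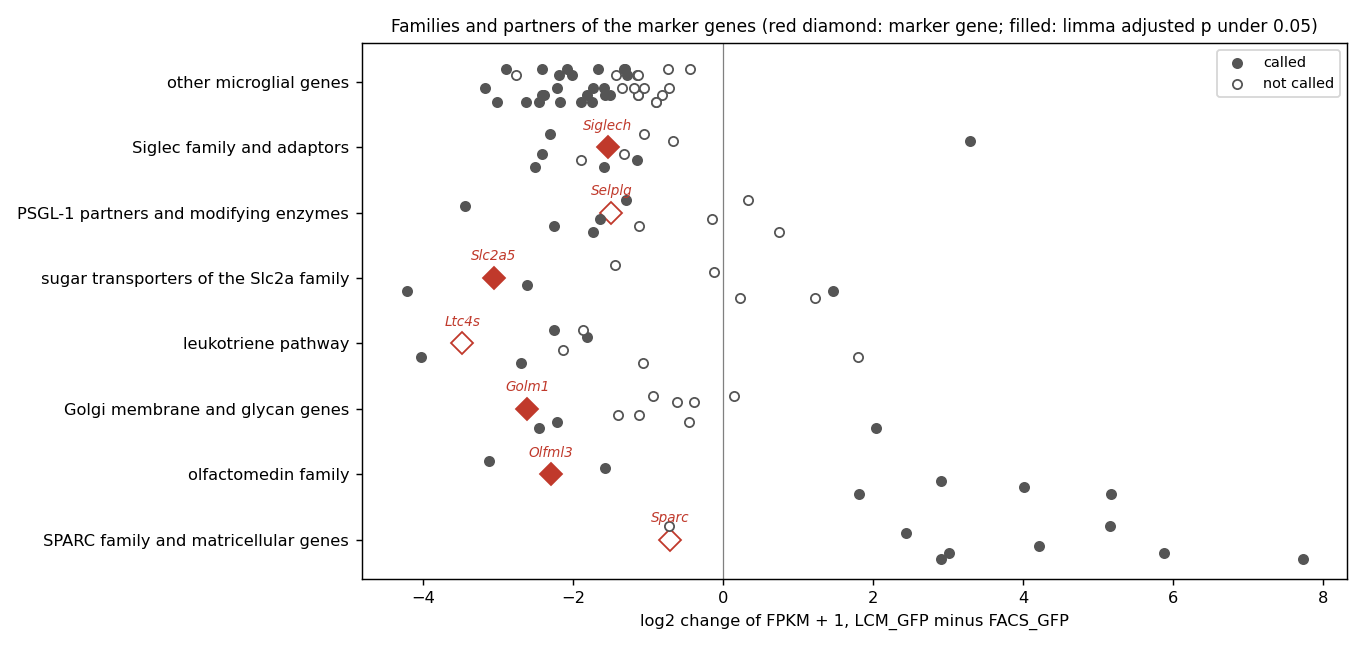
Log2 change of FPKM + 1 (LCM_GFP minus FACS_GFP, x axis) of the tested genes of each list (rows); grey points are list genes, red diamonds the 8 markers' own values where a list belongs to one, and filled symbols passed limma's adjusted p of 0.05. Sparc at −0.71 lies beside 1 relative, Thbs1 at −0.72, and the other 7 lie above 0, while the 4 called genes of the leukotriene list lie below 0, as does Ltc4s at −3.48.

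The order of the 8 levels in FPKM differed between the groups. In LCM_GFP the order of means ran Sparc, Selplg, Tmem119, Siglech, Slc2a5, Olfml3, Ltc4s and Golm1, and the ranges of neighbours overlapped over the 4 libraries. Within every LCM_GFP library, however, Sparc stood above Selplg, Selplg above Tmem119 and Olfml3 above Ltc4s. In FACS_GFP it ran Sparc, Selplg, Slc2a5, Tmem119, Siglech, Olfml3, Ltc4s and Golm1. There the ranges of Sparc and Selplg, Slc2a5 and Tmem119, Olfml3 and Ltc4s, and Ltc4s and Golm1 overlapped, and the other steps did not. Within every FACS_GFP library Sparc still stood above Selplg and Olfml3 above Ltc4s. In FACS_WT Selplg came before Sparc and Tmem119 before Slc2a5. The neighbours with overlapping ranges were Selplg and Sparc, Siglech and Olfml3, and Ltc4s and Golm1, and none of these pairs kept its order within every FACS_WT library. Sparc ranked 58 among all genes in LCM_GFP, 20 in FACS_GFP and 25 in FACS_WT, while Golm1 ranked 3301, 502 and 598 in these groups. Summed, the 8 genes made up 0.129%, 0.337%, 0.542% and 0.307% of LCM_GFP libraries 1 to 4, against 0.866%, 0.751% and 0.755% of FACS_GFP and 0.839%, 0.949% and 1.04% of FACS_WT.

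Relative to other microglial genes, the 8 genes fell into different positions. Each was divided, within its library, by the geometric mean of the 5 defining markers (Cx3cr1, Csf1r, Aif1, Itgam and P2ry12), of which Csf1r and Aif1 encode a growth factor receptor and the cytoskeletal protein IBA1. Golm1 was lower on this scale, at 0.161 to 0.313 in LCM_GFP against 0.524 to 0.576 in FACS_GFP, as was Olfml3, at 0.285 to 0.595 in LCM_GFP against 0.767 to 0.855 in FACS_GFP. Slc2a5, at 0.192 to 1.5 in LCM_GFP, and Ltc4s, at 0 to 0.417, lay below the FACS_GFP ranges of 1.66 to 1.79 and 0.554 to 0.700. Both overlapped FACS_WT, at 1.24 to 1.41 for Slc2a5 and 0.366 to 0.542 for Ltc4s, and LCM_GFP library 3 was above every FACS_WT library for Slc2a5. Sparc was higher, at 4.58 to 7.22 in LCM_GFP against 3.62 to 3.73 in FACS_GFP and 2.97 to 3.61 in FACS_WT. Tmem119 (0.652 to 2.48 in LCM_GFP against 1.38 to 1.70 in FACS_GFP), Selplg (2.01 to 5.06 in LCM_GFP against 3.29 to 3.48 in FACS_GFP) and Siglech (0.666 to 1.15 in LCM_GFP against 1.05 to 1.16 in FACS_GFP) overlapped. The ratio of Sparc to Slc2a5 follows from these values and adds no further support. It was 14.6, 9.13, 3.42 and 33.0 in LCM_GFP, against 2.25, 2.10 and 2.02 in FACS_GFP. This pair joins the smallest change of the 8 and the largest called one. For Sparc to Tmem119 the ratio was 2.91, 3.91, 4.58 and 9.69 in LCM_GFP, against 2.20, 2.29 and 2.63 in FACS_GFP.

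**Figure D3:**
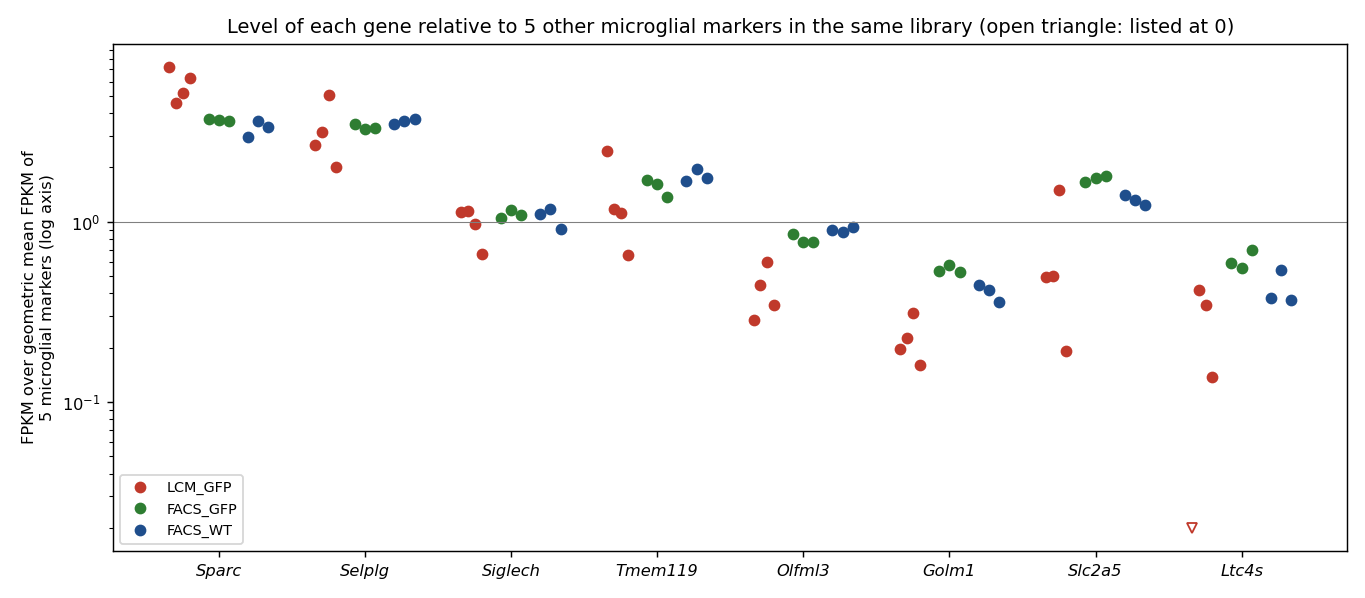
FPKM of each marker gene over the geometric mean FPKM of 5 other microglial markers in the same library (log axis); each point is a library, in 3 groups per gene, and the open triangle is Ltc4s listed at 0 in LCM_GFP library 1. Sparc lies above its sorted libraries in all 4 LCM_GFP libraries, Golm1 and Olfml3 lie below theirs, and Siglech, Selplg and Tmem119 overlap with FACS_GFP.

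The test repeated on this footing made no call. With each library scaled to the mean of the 39 other microglial genes, the log2 changes against FACS_GFP were −0.01 for Tmem119, 0.15 for Siglech, 0.21 for Selplg, −0.63 for Olfml3, −0.95 for Golm1, −1.38 for Slc2a5, −2.20 for Ltc4s and 0.99 for Sparc. None of the 8 passed in either comparison, the lowest adjusted p being that of Sparc, at 0.10 against FACS_GFP and 0.0943 against FACS_WT by limma. The median change of all genes tested was then 0.81 against FACS_GFP, in place of −0.60. It was −0.14 with median ratio scaling and −0.29 after quantile normalization. Under median ratio scaling 3 of the 8 were called lower than in FACS_GFP (Olfml3, Slc2a5 and Golm1) and 4 lower than in FACS_WT (these and Tmem119), where 10.1% and 10% of all genes were. Of all genes called, 39% were higher against FACS_GFP in the deposited scaling, 58.1% with median ratio scaling, 51.6% after quantile normalization and 81.6% under scaling to other microglial genes.

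The counts also moved with the libraries. With LCM_GFP libraries 2 and 4 alone, 7 of the 8 genes were called lower in both comparisons, all but Sparc. The share of all genes called lower was then 35.4% against FACS_GFP and 32.8% against FACS_WT, above that with all libraries, and the median change of all genes was −0.79 and −0.76. Leaving out any single FACS_GFP library left 1 gene called, Golm1, while the calls among all genes fell to between 1042 and 1087, against 4305 with all libraries. Leaving out FACS_WT library 1, 2 or 3 left 2, 3 and 2 genes, Tmem119 and Olfml3 each time. The share of all genes called lower was then 2.57%, 3.02% and 2.61%, against 19.1% with all libraries. With labelled sex as a covariate the calls against FACS_GFP stayed at 5, but none of the 6 held against FACS_WT, a group with no library labelled female. Of all genes, 16.0% were then called lower against FACS_GFP and 6.54% against FACS_WT.

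**Figure D4:**
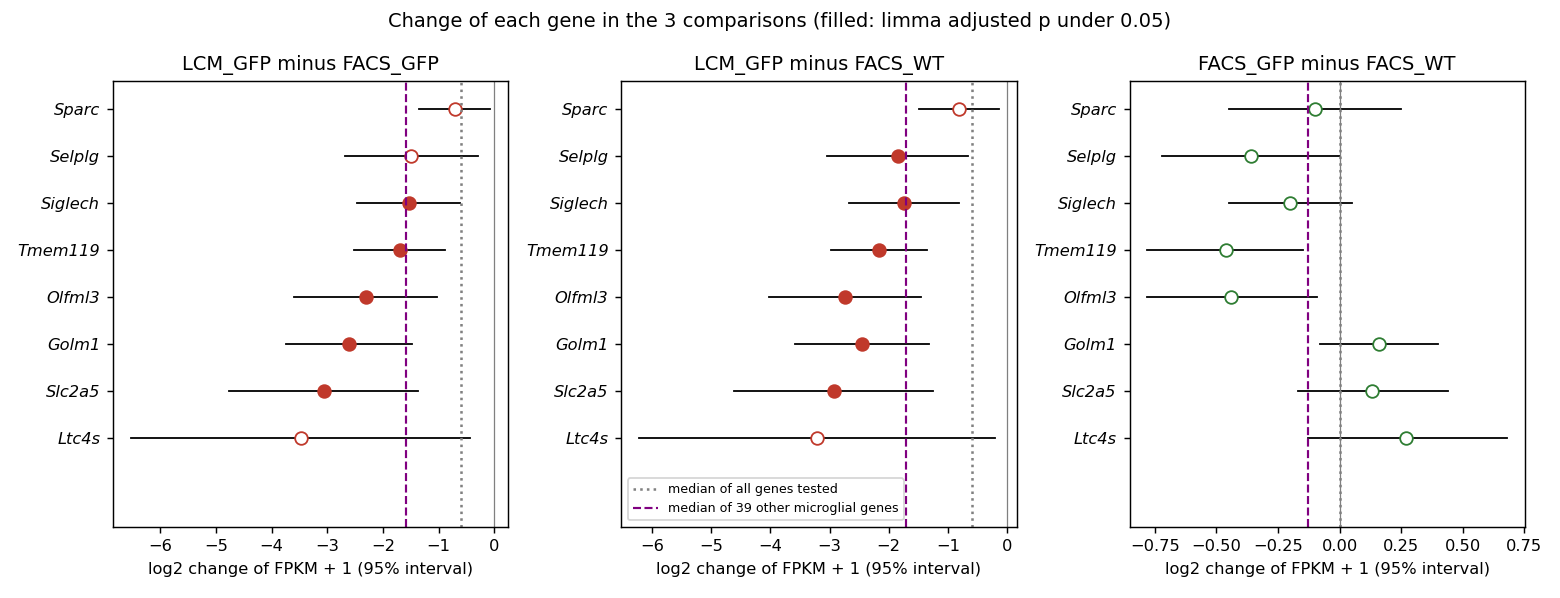
Log2 change of FPKM + 1 with its 95% interval (x axis, one scale per panel) for each marker gene in the 3 comparisons; filled points passed limma's adjusted p of 0.05, the dotted line is the median of all genes tested and the dashed line that of 39 other microglial genes. All 8 genes lie below 0 in both LCM_GFP panels, from −0.71 (Sparc) to −3.48 (Ltc4s) against FACS_GFP, and all are unfilled between the sorted groups.

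Between the sorted groups no difference in these genes passed the test. None of the 8 was called in limma's fit of FACS_GFP minus FACS_WT, where 13 of 11814 genes (0.110%) were called, 0.0762% lower and 0.0339% higher in FACS_GFP, and 2 of the 8, Tmem119 and Olfml3, had an unadjusted p under 0.05 (1552 of all genes did). The median log2 change of the 8 was −0.15 and that of all genes 0.00. For 4 of them every FACS_GFP library lay below every FACS_WT library, as for 9.29% of all genes tested: Tmem119 (log2 change −0.46, 95% interval −0.78 to −0.15, limma adjusted p = 0.277), Olfml3 (−0.44, −0.78 to −0.09, limma adjusted p = 0.316), Selplg (−0.36, −0.72 to 0.00, limma adjusted p = 0.386) and Siglech (−0.20, −0.45 to 0.05, limma adjusted p = 0.457). Golm1 lay above without overlap, as for 11.5% of all genes, with a log2 change of 0.16 (−0.08 to 0.40, limma adjusted p = 0.529). Slc2a5 (0.13), Ltc4s (0.27) and Sparc (−0.10) overlapped. Cx3cr1, the fractalkine receptor and the only one of the 39 other microglial genes called here, was lower, at 72.5, 64.6 and 70.4 FPKM in FACS_GFP against 123, 139 and 146 FPKM in FACS_WT (log2 change −0.97, limma adjusted p = 0.0179). In FACS_GFP, mean Tmem119 was 72.6% of the FACS_WT level, Olfml3 73.6%, Selplg 77.6% and Siglech 87.0%. The Siglec, PSGL-1, sugar transporter, leukotriene, SPARC, olfactomedin and Golgi lists held no called gene between the sorted groups.

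Patterns across the 10 libraries placed other genes beside the 8. Likeness was measured as the root mean square difference of log2(FPKM + 1) over the 10 libraries after centring each gene, among 8607 genes, and it draws on the same LCM_GFP and sorted groups as the tests. Nearest to Tmem119 were Tm2d2 (0.18), Tcn2 and Dock8, and nearest to Siglech were Rtn4rl1 (0.12), Sall3 and Prmt3. Selplg lay nearest to Htra2 (0.13), Fam46c and Gpr34, the last a microglial receptor for lysophosphatidylserine. Slc2a5 lay nearest to Tfpi (0.15), Lyn, a Src family kinase, and Prdm1. Ltc4s had no close match, the nearest being Pros1 (0.32), Atp8a2 and Ecscr. Golm1 lay nearest to Cyth4 (0.16), St3gal5 and Bco2, and Olfml3 to Ctsl (0.15), a lysosomal protease, and Ifngr1, the interferon gamma receptor. Sparc lay nearest to Sbds (0.12), Dnajc18 and Sh3bgrl3. Among the 8 genes themselves the closest pairs were Olfml3 with Golm1 (0.29) and Siglech with Selplg (0.30), and the farthest were Ltc4s with Sparc (1.83).

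The authors' deposited table of comparisons called fewer of the 8. For LCM_GFP against FACS_GFP, the authors' deposited table marked Olfml3 alone as significant (log2 ratio −2.42, q = 0.0474), where 5.13% of the 14813 genes with a completed test were marked. Golm1 missed at q = 0.0526 in the authors' deposited table, with the largest change of the 8 there (−2.91). For LCM_GFP against FACS_WT, Olfml3 again was the one marked in the authors' deposited table (−2.80, q = 0.0119), where 5.01% of 14870 genes were. For FACS_GFP against FACS_WT the authors' deposited table marked none of the 8, and 0.321% of 12467 genes in all. The direction of change of each of the 8 was the same in the authors' deposited table as in limma's fit in all 3 comparisons.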

How the data were processed

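RNA-seq of mouse brainstem microglia gave 10 libraries in 3 groups. The submitters' processing notes list Cufflinks 2.0.2, TopHat2 2.0.4 with Bowtie2 2.0.0, CASAVA 1.8.2 and the build mm9. The authors deposited one FPKM value per gene and library. They also deposited a table of group comparisons with a log2 ratio, a p-value and a q-value per gene, per the file headers. Treatment of multi-mapping reads, strand and further scaling are not given in the sources used here. Read counts were not recovered from the FPKM: 72.8% to 88.6% of low values lay within 0.2 of a whole step, so no counting intervals are given.

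A gene was tested if 3 or more compared libraries had 1 FPKM or more. Tests used limma 3.58.1 (R 4.3.3, statmod 1.5.0) on log2(FPKM + 1), with trend and robust empirical Bayes, 2 groups per fit, two-sided, with Benjamini-Hochberg adjustment over all genes tested and a threshold of 0.05. The procedure was also run on simulated data in which each gene had the same spread in both groups. The marker genes spread more over LCM_GFP libraries than over sorted ones, a case this simulation does not cover. Tables and figures used Python 3.11.15, pandas 2.3.3, numpy 2.4.6 and matplotlib 3.10.9. Alternatives changed the pseudocount, filter, scaling, weights, covariates and libraries, and the scaling to the median of other microglial genes was added after the data were seen.

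The members and the 18 gene lists were chosen with earlier results of these data known. Of 228 listed genes 226 matched, 3 of them through another symbol, and the other 2, Irf8 and Dpep1, were not analysed here. Of each list the text names up to 4 genes by mean FPKM and any called against the majority. A few genes that this rule or the marker set would include are not reported here, and the ratio to microglial markers leaves out 1 of them. Gcnt1, Abcc1, Mgst3, Siglecg, Spp1, Slc2a13, Selp, Sele, Myoc, Olfm4, B4galt1, Egr2, Fosb and Atf3 were named after their values were seen. So were genes in pairs of ratios. Promoters are RefSeq windows of GRCm38.p6, a build other than that of the files.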

Additional observations from a re-analysis of the deposited data

Results flagged for a closer look

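Sparc in LCM_GFP library 1, at 408 FPKM, stood apart from the other 3 LCM_GFP libraries, at 712, 742 and 729 FPKM. Its gap to the nearest library was 0.912 of the range of the group, above Dixon's critical value for 4 samples. Chance alone marks about 1 group in 20 in this way. LCM_GFP library 1 was also the lowest for Siglech, Olfml3, Selplg, Ltc4s and Golm1.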

How the results depend on the processing

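Of the log2 changes of the 8 genes under the alternatives, 113 of 152 kept direction and side of the threshold for LCM_GFP minus FACS_GFP, 111 of 152 for LCM_GFP minus FACS_WT and 130 of 136 for FACS_GFP minus FACS_WT. With 5 genes called against FACS_GFP, the count was 3 under median ratio scaling, 0 under scaling to other microglial genes, 0 under scaling to their median and 8 in one fit over all 3 groups. In the same order, 10.1%, 3.95%, 4.34% and 28.0% of all genes were called lower, against 19.6% in the main fit. With 6 called against FACS_WT, it was 0 under scaling to other microglial genes, 0 under scaling to their median and 0 with sex as a covariate. In the same order, 3.55%, 3.82% and 6.54% of all genes were called lower, against 19.1% in the main fit. Leaving out 1 library gave 1 to 7 genes against FACS_GFP and 2 to 8 against FACS_WT. Among all genes, leaving out 1 library gave 1042 to 5434 calls against FACS_GFP (4305 with all) and 1089 to 5257 against FACS_WT (4207 with all). Scaling to the median of other microglial genes gave 2715 calls against FACS_GFP, and sex as a covariate 1760 against FACS_WT. Between the sorted groups (13 calls) it was 7 with no filter, 3 in one fit over all 3 groups and 4 to 15 with 1 library left out. Directions turned under scaling to other microglial genes for Siglech (0.15 against FACS_GFP, 0.08 against FACS_WT), Selplg (0.21 against FACS_GFP) and Sparc (0.99 and 1.02, and 0.78 and 0.86 with the median). Between the sorted groups, none of these called, Slc2a5 turned to −0.01 and Ltc4s to −0.03 with sex as a covariate, and Sparc to 0.05 after quantile normalization, 0.03 and 0.01 under the microglial scalings, and −0.21 to 0.01 with 1 library left out. The cause was not tested.

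Replicate numbers do not pair the libraries: same-numbered libraries had deviations correlated at −0.04 to 0.11, and differently numbered ones at −0.21 to 0.11. With the replicate block, 4 genes were called against FACS_GFP (Siglech was not, limma adjusted p = 0.0623), 6 against FACS_WT and 0 between the sorted groups. Of all genes, 16.9%, 16.3% and 0.0846% were called lower in these fits. Depth per library is unknown, so precision rests on the number of libraries.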

Other observations

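The erythroid transcripts of LCM_GFP libraries 1 and 3 were largely globins of the embryo. Hbb-y, a beta-like globin of the embryonic yolk sac, reached 902 FPKM in the highest LCM_GFP library and was listed at 0 in all FACS_GFP libraries. Hbb-bh1, another embryonic globin, reached 646 FPKM in the highest LCM_GFP library and was also listed at 0 in all FACS_GFP libraries. Top2a, a topoisomerase of dividing cells, ranged between 2.22 and 251 FPKM in LCM_GFP, against 1.79 to 4.36 FPKM in FACS_GFP. These genes and the 8 microglial markers were measured in the same libraries, and their part in the marker levels was not tested.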
